A study of Arabidopsis thaliana with 24 samples.

Results

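In dexamethasone-treated Arabidopsis root meristems, 106 of 16552 measured genes were moderately higher at 1 to 2 h than at 0 h and, on average, stayed there up to 6 h. They were chosen by their measured values: a mean log2 value of at least 5 over all 24 arrays, a mean of 1 h and 2 h that lay 0.35 to 0.9 above the 0 h mean, and a mean of 4, 5 and 6 h that lay between -0.3 and 0.3 of the mean of 0.5, 1 and 2 h. The first difference is called the early rise and the second the late change. The level limit was met by 6173 genes, the level limit and the early rise together by 151, and all limits by 109. SACL1 and SACL2 each met the limits with an early rise of 0.35 and were left out by name, and so was plastid psbM with 0.36. All genes of the DOF family, 14 of them measured, and all 63 measured plastid-encoded genes were left out as well. With the sign of the early change turned, 90 genes met the same limits.

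The seedlings were 4 days old and of the Col-0 ecotype. At every time, 0 h included, they carried pRPS5A::TMO5:GR and pRPS5A::LHW:GR, brought together by a cross. After 0, 0.5, 1, 2, 3, 4, 5 or 6 h on medium with dexamethasone their root meristems were taken, with 3 arrays at each time. No seedlings moved to medium lacking the steroid were analysed here, so a change from 0 h contains the transfer, the steroid and the passage of time. Whether the 3 repeats were separate cultures is not stated, and a p-value here measures the spread between arrays.

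TMO5 and LHW are basic helix-loop-helix transcription factors that bind DNA as a pair, and together they drive the oriented divisions that widen the vascular tissue of the young root. A transcription factor joined to the hormone-binding domain of the glucocorticoid receptor (GR) stays in the cytoplasm until dexamethasone is given, and then enters the nucleus. The RPS5A promoter is active in dividing cells, so both fusions are made well beyond the vascular cells in which the factors normally meet. Direct targets of such a factor are usually sought among the genes that change in the first hours, and later changes also include the effects of those targets. In whole meristems, a change in the number of cells of a type and a change in RNA per cell cannot be told apart.

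The 106 genes were a mixed group by name. The gene table paired 20 of them with a symbol, and 86 with a locus identifier only, so most are named here by locus and without a role. The symbols included wall and sugar enzymes (EXPA8, TBL34, BGLU15 and ENGase85A), receptors and a channel (PSY1R, GID1B and GLR3.5), transcription factors (BZIP17, BZIP34, EEL and tny), proteins of the cell's structure or traffic (TRM27, IQD18 and ARLA1C), and enzymes or nucleic acid proteins (SCPL45, DLAH, ALN, BRCA2B, LSM3B and CcdA). By position, 35 members lay on chromosome 1, which is 33% of them against 25.9% of all genes tested. On chromosome 2 there were 23, or 21.7% against 15.3%, and on chromosome 4 there were 7, or 6.6% against 14.7%. AT3G56220 and AT3G56230 are next to each other in the gene order, and AT2G28130 and AT2G28150 have 1 gene between them.

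Averaged over the 106 genes, the log2 values of the 3 arrays were 5.497, 5.57 and 5.78 at 0 h, then 5.85, 5.94 and 5.97 at 0.5 h. At 1, 2 and 3 h they were 6.05, 6.04 and 6.16, then 6.12, 6.12 and 6.20, then 6.14, 6.11 and 6.13. At 4, 5 and 6 h they were 6.08, 6.08 and 6.09, then 6.06, 6.02 and 6.05, then 6.04, 6.06 and 6.04. All arrays from 0.5 h on lay above all 3 arrays of 0 h, which the choice of genes favours, and the arrays of the last 3 times lay close to each other.

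**Figure D1:**
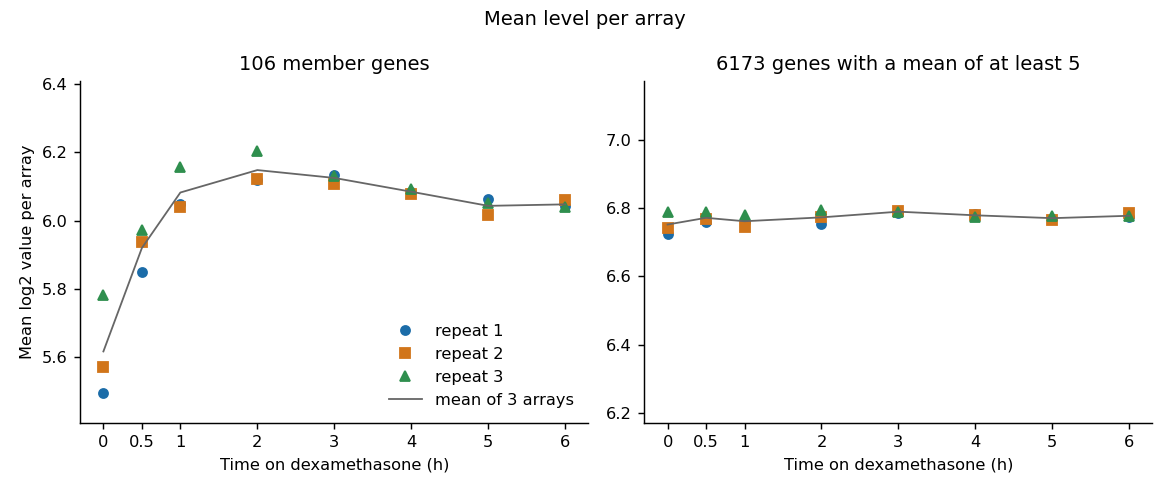
Mean log2 value in each of the 24 arrays against time on dexamethasone (h), for the 106 chosen genes (left) and for the 6173 genes with a mean of at least 5 (right), with axes of equal span; symbols are repeats 1, 2 and 3 and the line joins the means of 3 arrays. The chosen genes lay between 5.497 and 5.78 at 0 h and between 6.04 and 6.06 at 6 h, while the means on the right stayed between 6.72 and 6.79.

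The third array of 0 h stood apart in the direction of the later times. Its values exceeded the mean of the 3 arrays in 78 of the 106 genes, by a median of 0.15 in log2, against a median of 0.03 in the other genes with a mean of at least 5. It was the highest of the 0 h arrays in 63 of the 106. The third repeat also lay highest at 0.5, 1 and 2 h in the mean over the chosen genes. Without that 1 array, 233 genes met the rule, and without the third repeat of 0, 0.5, 1 and 2 h together 179 did, of which 84 were among the 106. Without array 3 of 0 h, 99 of the 106 still met the rule. Array 1 of 0 h decided the most members: without it 100 genes met the rule, and 67 of them, or 63.2% of the 106, were members. Without array 2 of 0 h 81 of the 106 met it, and 42 met it whichever array was left out. The part of these arrays in each result was not tested beyond the values given without it.

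The median change from 0 h over the 106 genes was 0.30 in log2 at 0.5 h, 0.43 after 1 h and 0.50 at 2 h. It was 0.47 at both 3 and 4 h, 0.43 after 5 h and 0.44 at 6 h. The same medians over the 6173 genes with a mean of at least 5 lay between -0.00 and 0.02. The rule fixes the height at 1 and 2 h and the closeness of the late to the early times, so this course is a description of the choice. At 0.5 h the change had a median of 64.9% of the early rise, and 45 genes were at least 0.35 above 0 h. At 6 h the change had a median of 92.6% of the early rise. These changes and the early rise share the 0 h arrays, and the choice favours genes that were low there. The late limit also used 0.5 h and 6 h, so the 2 shares describe the choice as well.

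**Figure D2:**
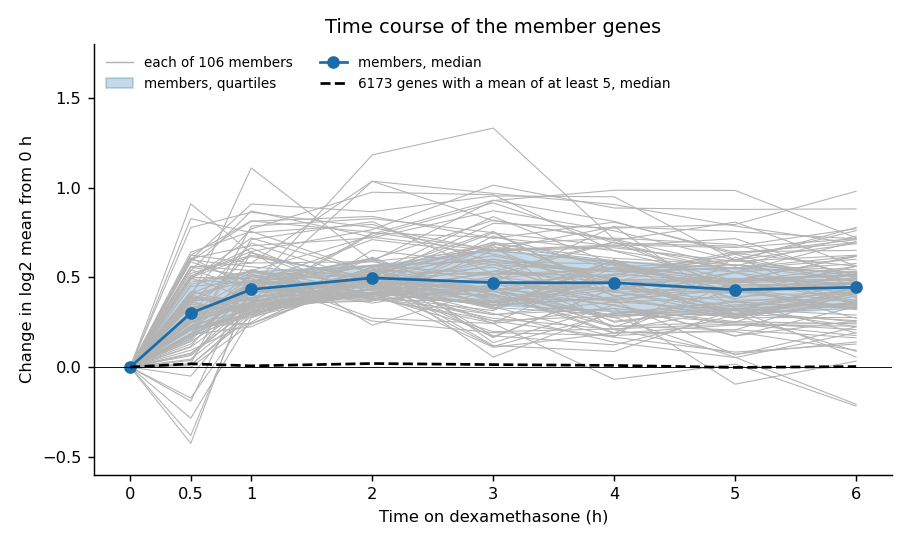
Change in the log2 time mean from 0 h (vertical axis) against time on dexamethasone in h (horizontal axis); thin grey lines are the 106 genes, the band spans their quartiles, the joined circles their median, and the dashed line the median of the 6173 genes with a mean of at least 5. The median reached 0.50 at 2 h and was 0.44 at 6 h, with single genes between -0.22 and 0.98 at 6 h.

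The genes differed in when they peaked and in how much they kept. The highest time mean fell at 0.5 h in 5 genes, at 1 h in 20, at 2 h in 25, at 3 h in 27, at 4 h in 13, at 5 h in 6 and at 6 h in 10. The name sustained risers holds for means over times and not for each gene. At 6 h, 44 genes were further above 0 h than in their early rise, 19 had kept less than 1 in 2 parts of it, and 32 were less than 0.35 above 0 h. The log2 change at 6 h was -0.21 in AT2G43140 and -0.22 in AT1G55700.

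Whether the rise was seen in each repeat was described by taking the early rise within arrays of the same repeat number. It was above 0 in all 3 repeats for 97 of the 106 genes, against 15.5% of all genes and 19.5% of the 6173 genes. It had a median of 0.54 in repeat 1, 0.50 in repeat 2 and 0.38 in repeat 3, against 0.03, 0.01 and 0.00 in the 6173 genes. A rise of at least 0.35 was present in 90 genes in repeat 1, in 84 in repeat 2 and in 59 in repeat 3, and in all of them in 35 genes. Over all 16552 genes these counts were 1690, 1715, 1305 and 118. In 58 of the 106 genes every array of 1 and 2 h lay above every array of 0 h, which held for 2.1% of all genes tested. The rule used these arrays and the mean of these differences, so nothing is read from any of these counts.

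**Figure D3:**
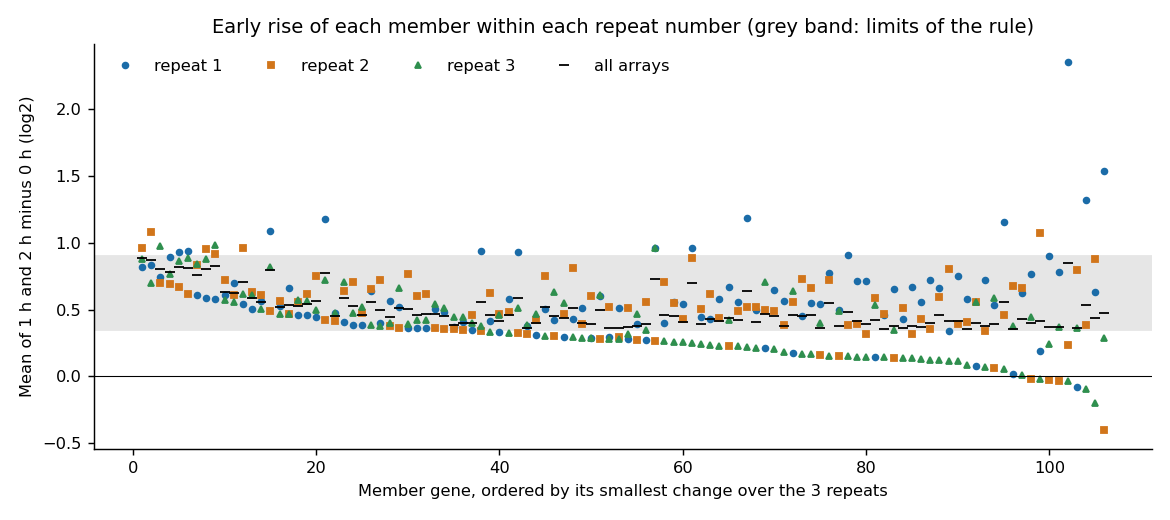
Early rise (mean of 1 h and 2 h minus 0 h, log2) within repeat 1, 2 and 3 and over all arrays (dashes) for each of the 106 genes, ordered along the horizontal axis by the smallest of its 3 values; the grey band marks the limits 0.35 and 0.9. The genes at the left lay above 0.5 in every repeat, and 9 genes at the right had a value at or below 0 in 1 repeat.

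Only 42 members met the rule whichever array was left out, so most members depended on at least 1 single array. Among those that did, DLAH and AT3G44160 are given here as examples. DLAH, named for its acylhydrolase activity on lipids, had log2 values of 5.02, 5.91 and 5.43 at 1 h, against 2.50, 5.16 and 5.37 at 0 h. Its early rise was 2.35 in repeat 1, 0.23 in repeat 2 and -0.04 in repeat 3, and 0.10 without repeat 1, against 0.85 with all arrays. AT3G44160 had 3.95, 5.36 and 4.95 at 0 h, with an early rise of 1.54 in repeat 1, -0.40 in repeat 2 and 0.29 in repeat 3. In both genes repeat 1 of 0 h lay far below the other arrays of that time.

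The members nearest to the limits show how narrow the borders were. For the early rise, AT5G04860 and AT4G16800 lay just inside the lower limit at 0.36 each, and AT1G75170 and AT3G50620 just outside at 0.35 each. At the upper limit EXPA8 with 0.89 and AT1G28660 with 0.87 were inside, and AT5G66440 with 0.99 and AT5G14120 with 1.01 were outside. For the late change, AT1G55700 at -0.29 and AT3G10980 at -0.28 were inside, and AT5G19090 at -0.34 and AT2G16230 at -0.36 outside. On the other side AT5G19730 at 0.30 and AT2G04690 at 0.29 were inside, and AT5G38340 at 0.31 and SFP1 at 0.32 outside. For the level, AT5G20550 at 5.03 and DLAH at 5.06 were inside, and TET10 and AT1G09794, both at 4.99, outside. At the lower limit of the early rise, the genes inside and outside differed by less than the median SD of 0.224 between the arrays of 0 h over the members. This SD had a median of 0.138 in the other genes with a mean of at least 5.

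Among the wall and sugar enzymes, EXPA8 headed the order by smallest within-repeat rise. Expansins loosen the cell wall and allow cells to extend. EXPA8 had log2 values of 5.24, 5.03 and 5.57 at 0 h, 6.12, 5.94 and 6.50 at 1 h, 6.00, 6.03 and 6.41 at 2 h, then 5.72, 6.00 and 6.18 at 6 h. All 9 of these later arrays lay above the 3 of 0 h. Its early rise was 0.82, 0.96 and 0.88 in repeats 1, 2 and 3. Of 13 expansin A genes measured, EXPA8 was the only member. EXPA15 had an early rise of 0.58 and a late change of -0.36, outside the limit. The root hair genes EXPA7 and EXPA18 had early rises of 0.23 and 0.19 and were 0.61 and 0.81 above 0 h at 6 h.

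TBL34, a member of the TBL family that adds acetyl groups to wall xylan, had values of 5.09, 5.48 and 5.76 at 0 h, 5.90, 5.77 and 6.06 at 1 h, 6.14, 5.83 and 6.49 at 2 h, then 5.99, 5.84 and 5.89 at 6 h. Its arrays of 1 and 2 h did not overlap those of 0 h, though the lowest array of 1 h barely exceeded the highest of 0 h. It was the only member of 24 TBL genes measured, 13 of which met the level limit. Another TBL gene, AT2G31110, had an early rise of 0.39 and a late change of 0.19, within both limits. Its mean log2 value of 4.75 was below the level limit. BGLU15, a beta-glucosidase gene, had 6.52, 6.53 and 7.21 at 0 h, 7.30, 7.32 and 7.32 at 2 h, then 7.12, 7.55 and 7.19 at 6 h. Its arrays at 0 h were split, and its early rise was 0.62, 0.66 and 0.01 in the 3 repeats. ENGase85A encodes an endo-beta-N-acetylglucosaminidase, which cuts N-linked sugar chains. It had 7.22, 6.96 and 6.97 at 0 h, 7.53, 7.28 and 7.58 at 1 h, then 7.43, 7.54 and 7.42 at 6 h. Its relative ENGase85B had an early rise of 0.12.

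The receptors among the members respond to a peptide, a hormone and amino acids. PSY1R, a leucine-rich repeat receptor kinase linked to the sulfated peptide PSY1, had log2 values of 4.67, 4.501 and 5.14 at 0 h, 4.86, 4.79 and 4.78 at 0.5 h, 5.19, 5.02 and 5.55 at 1 h, then 5.24, 5.25 and 5.37 at 6 h. The arrays of 0.5 h lay among those of 0 h, and its change at 0.5 h was 0.04. Its late change was 0.29, just under the limit.

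GID1B, a receptor of gibberellin, had 6.67, 6.66 and 6.47 at 0 h, 7.27, 7.20 and 7.16 at 0.5 h, 7.19, 7.14 and 6.80 at 1 h, then 7.15, 7.08 and 6.76 at 6 h. It was highest at 0.5 h, 0.61 above 0 h. GLR3.5 encodes a glutamate receptor-like ion channel. It had 5.87, 6.06 and 6.46 at 0 h, 6.74, 6.62 and 6.70 at 2 h, then 6.41, 6.20 and 6.05 at 6 h. Its change was 0.56 at 2 h and 0.09 at 6 h, so it is among the genes that kept little of their early rise. GLR3.3, the other glutamate receptor-like gene that met the level limit, had an early rise of -0.01.

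Of 4 members with symbols of transcription factors, 3 belong to the bZIP family. BZIP34 had log2 values of 5.19, 4.98 and 5.25 at 0 h, 5.53, 5.40 and 5.72 at 1 h, then 5.47, 5.53 and 5.15 at 6 h. EEL, a bZIP factor of the late embryo program, had 5.32, 5.25 and 5.25 at 0 h, 5.82, 5.69 and 5.47 at 1 h, then 5.63, 5.84 and 5.92 at 6 h. The arrays of EEL at 0 h were close together and all later ones given here lay above them. BZIP17, a membrane-bound factor released under stress of the endoplasmic reticulum or salt, had 5.16, 5.55 and 5.31 at 0 h, 5.98, 5.82 and 5.41 at 1 h, then 5.61, 5.39 and 5.54 at 6 h. Its early rise was 0.72, 0.35 and 0.12 in the 3 repeats, and its arrays of 1 h and 0 h overlapped. Without repeat 1 it was 0.24, below the limit. Of 9 genes with a bZIP name, 7 met the level limit. The early rise of those that were not members was -0.01 for BZIP60, -0.08 for BZIP28, -0.11 for BZIP61 and -0.27 for BZIP53. BZIP28 and BZIP60 are the other factors of the stress response of the endoplasmic reticulum.

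The gene tny (TINY) encodes an AP2/ERF factor of the DREB group. It had 5.43, 6.07 and 6.29 at 0 h, 6.16, 6.14 and 6.59 at 1 h, 6.58, 6.68 and 6.75 at 2 h, 6.81, 6.58 and 7.19 at 3 h, then 6.60, 6.70 and 6.62 at 6 h. The 1 h arrays overlapped those of 0 h and the arrays of 2 h and later given here did not. Its largest change was 0.93 at 3 h.

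**Figure D4:**
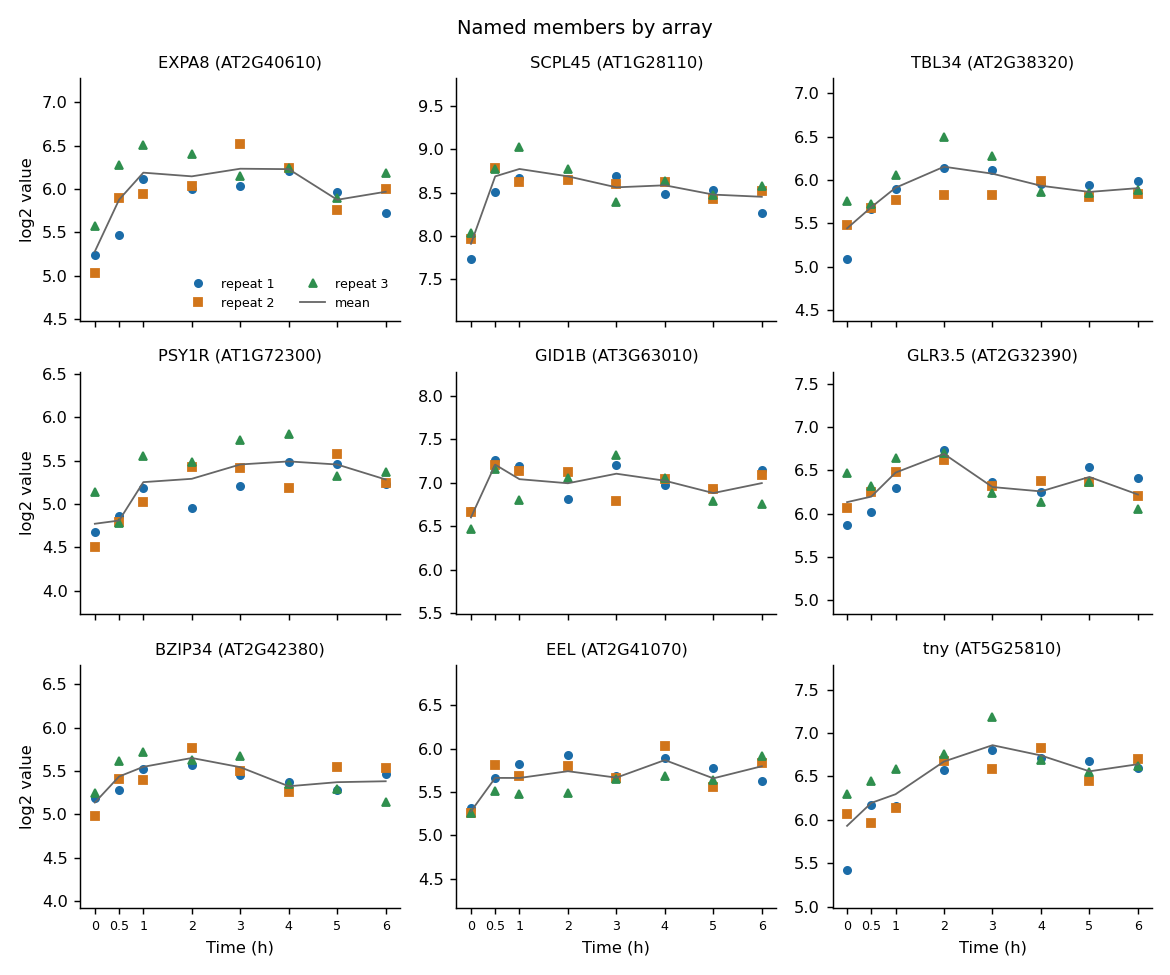
Log2 value in each array against time on dexamethasone (h) for 9 members with symbols; symbols are repeats 1, 2 and 3, the line joins the means of 3 arrays, and every panel spans the same log2 range. SCPL45 was near its highest mean at 0.5 h to 1 h, GID1B had its highest at 0.5 h, and PSY1R and tny reached theirs at 3 to 4 h. The mean of GLR3.5 at 6 h was only 0.09 above 0 h.

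SCPL45 encodes a serine carboxypeptidase-like protein, of a family that trims peptides or transfers acyl groups. It had log2 values of 7.73, 7.96 and 8.04 at 0 h, 8.51, 8.78 and 8.77 at 0.5 h, 8.67, 8.62 and 9.03 at 1 h, then 8.26, 8.52 and 8.58 at 6 h. No later array of these overlapped the arrays of 0 h, and its change of 0.78 at 0.5 h was close to its early rise of 0.82. The late change was -0.21. Of 7 SCPL genes measured, it was the only member.

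The remaining symbols cover several roles, and they were chosen for mention after their values were seen. BRCA2B, which acts in repair by homologous recombination, had 4.82, 5.04 and 5.01 at 0 h, 5.19, 5.84 and 5.58 at 1 h, then 5.46, 5.05 and 5.43 at 6 h. ALN, the allantoinase of purine breakdown, had 7.36, 7.40 and 7.61 at 0 h, 7.97, 7.91 and 7.91 at 2 h, then 7.58, 7.58 and 7.59 at 6 h. At 6 h its arrays lay among those of 0 h.

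IQD18, of the calmodulin-binding IQ-domain family, had 6.70, 6.73 and 6.48 at 0 h, 7.34, 6.94 and 7.24 at 1 h, then 6.73, 6.90 and 6.92 at 6 h. TRM27, of the TON1-recruiting family that organises microtubule arrays, had 5.83, 5.67 and 6.06 at 0 h, 5.93, 6.14 and 6.46 at 1 h, then 6.50, 6.65 and 6.50 at 6 h. Thus IQD18 had a change of 0.21 at 6 h and TRM27 one of 0.70, although their early rises were 0.50 and 0.40. The early rise was 0.42 for ARLA1C, an ARF-like GTPase gene, 0.42 for CcdA, of thiol transfer and cytochrome assembly in the plastid, and 0.39 for LSM3B, an Sm-like RNA-binding protein gene. LSM3A, its close relative, had 0.01.

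Of the 12 genes with the largest smallest-repeat rise, 10 have a locus name only. AT1G28660 had 6.08, 5.91 and 6.45 at 0 h, 6.96, 6.76 and 7.03 at 1 h, then 6.50, 6.63 and 6.42 at 6 h. AT1G71870 had 5.10, 5.22 and 5.11 at 0 h, 6.19, 5.85 and 5.84 at 1 h, then 5.76, 5.80 and 6.02 at 6 h. AT4G23500 had 5.70, 5.53 and 5.95 at 0 h, 6.13, 6.50 and 6.49 at 1 h, then 6.43, 6.75 and 6.65 at 6 h. The arrays of 1 h lay above those of 0 h in all 3 genes, and AT1G28660 overlapped with 0 h again at 6 h while the others did not. The early rises were 0.81 in AT5G60760, 0.83 in AT1G68400, 0.81 in AT5G52450, 0.76 in AT1G36060, 0.63 in AT3G61490 and 0.62 in AT1G10750. They differed later, with changes at 6 h of 0.25 in AT5G60760 and 0.77 in AT3G61490.

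Single times were also compared with 0 h in a model of all genes, fitted with limma, and calls were made where p, adjusted over all 16552 genes after Benjamini and Hochberg, stayed under 0.05. Since the rule used the 0 h arrays, the following counts describe the choice and nothing is read from them. Of the 106 genes, 5 were called above 0 h at 0.5 h, 19 after 1 h, 32 at 2 h, 45 after 3 h, 38 at 4 h, 31 after 5 h and 37 at 6 h. None was called below 0 h, and at an unadjusted p under 0.05 in limma 2 were lower at 0.5 h and 0 at the later times. The shares of all genes called higher were 0.145% at 0.5 h, 0.326% after 1 h, 0.501% at 2 h, 2.33% after 3 h, 1.78% at 4 h, 2.09% after 5 h and 2.5% at 6 h. SCPL45, AT5G19730 and AT1G55760 were called at all 7 times, and 31 of the 106 genes at none. Without array 3 of 0 h the counts were 11, 29, 52, 64, 59, 50 and 50 at 0.5 to 6 h. They were 3, 10, 21, 22, 14, 12 and 14 when the 0 h array of repeat 1 was dropped, and 4, 9, 24, 23, 18, 14 and 20 when that of repeat 2 was. Without array 1 of the later time itself they were 4, 13, 24, 31, 19, 13 and 27, without its array 2 they were 2, 14, 25, 33, 16, 15 and 13, and without its array 3 they were 2, 8, 23, 24, 12, 11 and 19. Leaving out 1 array thus moved the count by over 1.5 times at each of the 7 times.

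AT5G19730 and AT1G55760 were chosen for mention after their values were seen. AT5G19730, whose mean was highest at 6 h, had log2 values of 6.31, 6.37 and 6.42 at 0 h, 6.94, 6.81 and 7.14 at 0.5 h, 6.71, 6.83 and 7.07 at 2 h, 7.14, 7.04 and 7.25 at 4 h, then 7.33, 7.40 and 7.32 at 6 h. AT1G55760 had 4.34, 4.70 and 4.52 at 0 h, 5.13, 4.99 and 5.05 at 0.5 h, 5.38, 5.25 and 5.55 at 1 h, then 5.13, 5.06 and 5.24 at 6 h. In both genes no array from 0.5 h on that is given here overlapped the arrays of 0 h.

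A further difference was not limited directly by the rule. It set 3 h against the average of the 0.5 h mean and the mean of 4, 5 and 6 h. This difference shares no sampling error with the quantities of the rule where all times have equal spread. With the spread of each time averaged over all genes, the correlation of their errors was at most 0.0243 in size. Single members can differ more between times. The SD of AT5G48430 was 0.46 at 0.5 h and 0.014 at 4 h. For single genes this correlation was not computed and can be larger. The late limit did use the arrays of 0.5, 4, 5 and 6 h, so the choice also acts on the true courses. A low 0.5 h mean raises both this difference and the late change. The shares given next are therefore not free of the rule. Of the 106 genes, 3 were called higher at 3 h with limma, which is 2.83%, against 0.181% of all genes tested, and none was called lower, against 0.0181%. Among the 6173 genes with a mean of at least 5, 22 were called higher and 2 lower, together 0.389%. The median difference was 0.11 over the 106 genes, -0.02 over all genes and 0.00 over the 6173 genes with a mean of at least 5. It was above 0 in 77 of the 106 genes and below 0 in 29. At an unadjusted p under 0.05 in limma there were 27 higher and 3 lower, together 28.3%, against 8.98% of all genes and 11.6% of the 6173. The 3 called genes have a locus name only. With a variance trend in limma 7 members were called higher, the 3 and AT1G28660, AT5G60760, AT1G58110 and AT3G23190, whose differences of 0.50, 0.51, 0.37 and 0.51 had adjusted p-values of 0.032, 0.0272, 0.034 and 0.0344. With the replicate number as a block 7 were called as well.

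AT5G48430 had log2 values of 5.76, 6.27 and 6.22 at 0 h, 5.18, 5.92 and 6.02 at 0.5 h, 6.28, 6.66 and 6.64 at 1 h, 7.11, 7.11 and 7.58 at 2 h, 7.37, 7.49 and 7.39 at 3 h, 6.81, 6.78 and 6.80 at 4 h, 6.48, 6.61 and 6.46 at 5 h, then 6.29, 6.52 and 6.41 at 6 h. It was higher at 3 h than at 0.5 h and the late times by 1.28 ± 0.15 (SE) in log2, with a limma adjusted p of 1.17e-04. Over the alternatives its adjusted p ran from 2.26e-06 to 0.00326, and it was called in all 22 fits run. All 3 arrays of 3 h lay above every array of 0.5, 4, 5 and 6 h, so this gene had a peak at 2 to 3 h and not a plateau.

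AT2G43140 had 5.80, 5.93 and 5.86 at 0.5 h, 6.82, 6.60 and 6.63 at 3 h, 6.57, 6.44 and 6.68 at 4 h, then 6.21, 6.00 and 6.03 at 6 h. It was higher at 3 h than at 0.5 h and the late times by 0.59 ± 0.10 (SE), with a limma adjusted p of 0.00805. This call was lost without array 1 of 3 h, with an adjusted p of 0.105, which was the highest of a range that began at 0.0011. Its arrays of 0.5 h lay below all of its arrays of 0 h, which were 6.26, 6.05 and 6.55. The change from 0 h was 0.47 at 1 h and 0.56 at 2 h, above the 0.40 at 3 h. Its 3 h arrays overlapped those of 4 h, so the call does not mark a peak at 3 h.

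AT2G28960 had 5.88, 6.17 and 6.53 at 0.5 h, 6.93, 7.33 and 7.11 at 3 h, 6.78, 6.69 and 6.83 at 4 h, then 6.62, 6.86 and 6.61 at 6 h. It was higher at 3 h by 0.65 ± 0.12 (SE), with a limma adjusted p of 0.0264. The adjusted p was 0.064 without array 1 of 0.5 h, 0.0615 without its array 2, 0.198 without array 2 of 3 h and 0.159 without its array 3, in a range from 0.00337. The 3 h arrays of AT2G28960 lay above those of 0.5, 4 and 6 h, and its arrays of 0.5 h were widely spread.

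**Figure D5:**
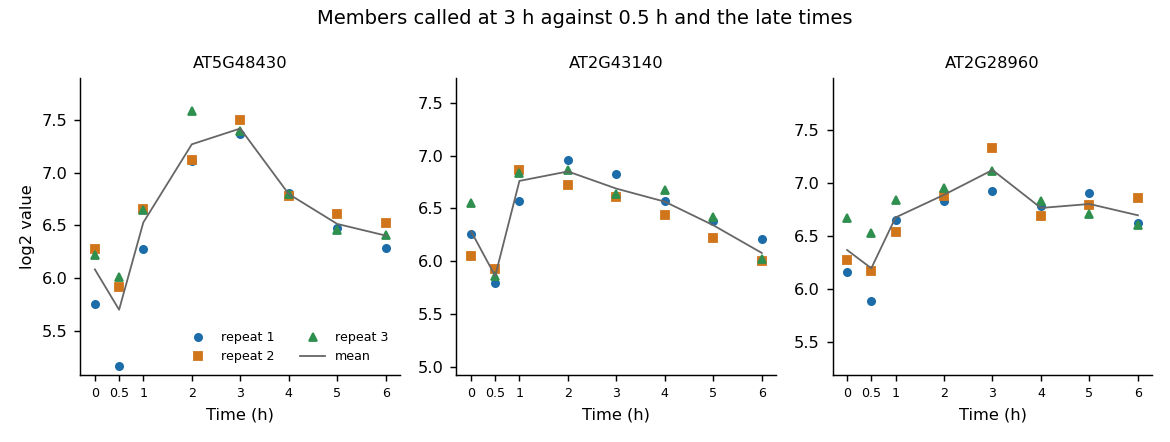
Log2 value in each array against time on dexamethasone (h) for the 3 genes called higher at 3 h than the average of 0.5 h and the late times; symbols are repeats 1, 2 and 3, the line joins the means of 3 arrays, and all panels span the same log2 range. The means of all 3 genes were lower at 0.5 h than at 0 h and lower at 6 h than at 3 h.

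These 3 genes were among 7 whose mean at 0.5 h lay below 0 h. The change at 0.5 h was -0.43 in AT2G43140, -0.38 in AT5G48430, -0.29 in AT3G13760, -0.19 in AT1G55700, -0.17 in AT2G28960, -0.05 in AT5G45500 and -0.00 in AT3G46400. None of them was called below 0 h at 0.5 h by limma, and AT2G43140 and AT5G48430 were the 2 members lower at an unadjusted p under 0.05. AT1G55700, the gene nearest to the lower limit of the late change, had 6.93, 6.54 and 6.89 at 0 h, 6.50, 6.67 and 6.62 at 0.5 h, 7.60, 7.13 and 7.18 at 1 h, then 6.75, 6.37 and 6.58 at 6 h.

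The change between 1 and 2 h and that between 4 and 6 h were not limited directly by the rule either, though it used these arrays. At 2 h against 1 h no member was called by limma, against 0.0121% of all genes called higher and 0.00604% called lower. The median difference was 0.08, with 73 genes above 0 and 33 below. At an unadjusted p under 0.05 there were 7 members, 6 higher and 1 lower, or 6.6%, against 6.7% of all genes. At 6 h against 4 h no member and no other gene was called, so the shares were 0.0% in either direction. The median was -0.03, with 36 genes above 0 and 70 below, and 5 members had an unadjusted p under 0.05 in limma, 1 higher and 4 lower, or 4.72%, against 3.79% of all genes. A change of a single gene between these times had a median SE of 0.143, and differences of several times that size were not called either. AT5G48430 differed by 0.74 between 2 h and 1 h (limma adjusted p = 0.313). AT2G43140 differed by -0.48 between 6 h and 4 h, with an unadjusted p of 6.45e-04 that did not hold after adjustment in limma. Changes of this size were thus not called in these comparisons. At 4 h against 0 h a change of 0.71 in AT5G48430 was called (limma adjusted p = 0.0349), so size alone did not decide.

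Gene classes were drawn up from words in the symbols and synonyms, so they cover few genes and say nothing about the 86 members with a locus name only. They matched 9 of the 20 members with symbols. The words missed tny, GID1B, TBL34, ENGase85A, LSM3B, CcdA, BRCA2B, ALN, IQD18, TRM27 and ARLA1C, several of which have roles in the classes below. The matched members were 3 of 51 transcription factor genes that met the level limit, 2 of 6 kinase and receptor genes, 2 of 37 cell wall and sugar genes, 1 of 62 genes of protein degradation and 1 of 11 lipid genes. None of 17 transporter genes, 52 redox genes, 12 RNA genes, 5 hormone-named genes, 24 chromatin and cell cycle genes or 4 chaperone genes matched by these words was a member. The counts therefore describe the words and not the roles of the members. Of all 6173 genes that met the level limit, 2.56% had an early rise of at least 0.35, with a median early rise of 0.01. Within transcription factors the median was 0.01, and within the few kinase and receptor genes it was 0.11.

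Of 46 genes chosen to mark cell types, cell cycle phases and handling, 12 were measured and none was a member. For OPS and CLE45 the rule fixed this, since it leaves both out by name, and their mean log2 values of 4.51 and 2.28 were below the level limit as well. BBM, a gene of the root stem cells and the only measured marker of the meristem, had a mean log2 value of 5.08 and an early rise of 0.06. The early rise was 0.07 in AUR1 and 0.22 in AUR2, both of dividing cells, and 0.14 in ICU2 and 0.07 in PRL, both of DNA replication. The phloem gene OPS had 0.36 and CLE45 0.14, and no measured gene marked xylem, endodermis or root cap. ZAT10, which responds to handling and stress, had an early change of -0.38 and a change of -0.92 at 6 h. The log2 of the summed unlogged signals of EXPA7 and EXPA18 per array was 9.1 to 9.18 at 6 h, against 8.18 to 8.94 at 0 h. The log2 value of the shoot gene RCA was 5.19 to 5.45 at 6 h, against 4.49 to 4.65 at 0 h. The cortex marker CO2 had a mean of 1.57, near the bottom of the scale. The part of these shifts in the members' rise was not tested.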

How the data were processed

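Values of 24 arrays, 3 at each of 8 times, were analysed. The authors deposited expression on a log2 scale after RMA, per the submitters' processing notes. Its version is not given in the sources, nor is a genome build. RMA makes arrays alike in distribution and can hide a shift shared by most genes. Per-gene values are means of the 16746 probe sets with 1 gene, for 16552 genes, of which 165 had more than 1 probe set; 758 probe sets with several genes and 20904 unnamed ones were left out. Symbols came from the platform annotation and, for 16697 probe sets, the TAIR10.1 RefSeq table. Array medians over genes lay between 3.69 and 3.80, and 3 arrays a time limit the precision.

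With limma 3.58.1 (R 4.3.3), lmFit and eBayes gave 1 mean per time over all arrays. Residual SDs fell from 0.253 at 0 h to 0.194 at 6 h, so the shared spread can understate errors at 0 h. The fit was tested on simulated data. Named by a fixed order are the 12 members with the largest smallest-repeat rise and the first 3 of each class. Members called in comparisons that the rule did not limit directly, and the genes nearest to each limit, were named as well. Other members, among them TBL34, ENGase85A, GID1B, tny and AT3G44160, were chosen for mention after their values were seen. So were the gene families set beside members. Members, lists and tests were chosen with earlier results of these data known. Alternatives were other scalings, probe set, level, time median, variance and block choices, and leaving out arrays. Promoter motifs were not analysed here.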

Additional observations from a re-analysis of the deposited data

Results flagged for a closer look

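Probe sets that the platform annotation leaves without a gene name were not used in any comparison. Of 20904 such probe sets, 8136 had a mean log2 value of at least 5, and 316 of these met the same limits on early rise and late change as the member genes. With the sign of the early change turned, 193 met them. They stand outside the gene-level comparisons, and which genes they measure was not analysed here. No set of steroid-free arrays was at hand to give a background for this count.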

How the results depend on the processing

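The number of genes that met the rule was 106, and 179 without the third repeat of 0 to 2 h. It ran from 100 to 233 when single arrays were left out, with the highest count without array 3 of 0 h. It stayed within 1.5 times of 106 under the other choices, namely 107 with the brightest probe set, 96 after centring each array on its median, 99 after a second quantile normalization, 147 and 71 with a level limit of 4.5 and 5.5, and 125 with time medians. Of the 106 genes, 105, 93, 98 and 78 met the rule with the brightest probe set, the centring, the quantile normalization and the medians. Members called at 3 h against 0.5 h and the late times numbered 3, with a replicate block 7 (adding AT5G60760, AT3G13760, AT1G58110 and AT3G23190) and with a variance trend 7, and 2 to 4 with single arrays left out. At 2 h against 1 h and at 6 h against 4 h no alternative called a member. Members called against 0 h ran, with single arrays left out, from 2 to 11 at 0.5 h, 8 to 29 at 1 h, 21 to 52 at 2 h, 22 to 64 at 3 h, 12 to 59 at 4 h, 11 to 50 at 5 h and 13 to 50 at 6 h. Without the third repeat of 0 to 2 h they were 58 at 4 h and 51 at 5 h. With the replicate block they were 5, 23, 38, 55, 49, 40 and 44 at 0.5 to 6 h. Deviations of same-numbered arrays correlated between -0.0304 and 0.223 (median 0.0339, 14 of 84 pairs over 0.1), and those of arrays with different numbers between -0.161 and 0.0612 (median -0.0169, 0 of 168 over 0.1). Same-numbered arrays were thus more alike, but not every pair passed 0.1, and the labels state no shared batch, so the fit without the block was kept. The cause of these shifts was not tested beyond the arrays left out. None of 168 early rises of the 28 named members under other settings changed sign. Each moved by less than 1 SD over repeats, a yardstick that an outlying array widens. Leaving out 1 of 3 repeats cannot move their mean by 1 SD, so nothing is read from this for those settings. The brightest probe set could not change these rises either, since the 2 members with several probe sets are not among the 28. Without repeat 1 the early rise was 0.10 in DLAH, 0.37 in AT3G10980 and 0.24 in BZIP17, against 0.85, 0.64 and 0.40 with all arrays, and DLAH had 1.29 without repeat 3.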
